A study of Mus musculus with 96 samples.

Results

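The livers of 8 C57BL6/J mice kept on a calorie-restricted diet were set against the livers of restricted mice of 3 other inbred strains, 8 each of 129S1/SvImJ, C3H/HeJ and DBA/2J. These 8 samples were chosen by their strain and diet labels out of 96 in the series, and the 3 other strains entered as 24 samples with equal weight per strain. Each sample is the total liver RNA of 1 male mouse on 1 Affymetrix mouse genome array. The mice were bought at 6 weeks old, kept in single cages and given 84 kcal per week of an AIN93M-based diet for 2 weeks, and from 8 weeks old ate either the control diet or food reduced by 25% in calories until collection at 22 weeks, 14 weeks later. The restricted groups are C57BL6/J, 129S1/SvImJ, C3H/HeJ and DBA/2J; the control groups of the same 4 strains, again 8 mice each, served to ask which strain differences appear on the restricted diet alone. No mouse carried an added allele or transgene according to the labels, and the restricted and control groups of CBA/J and of B6C3F1/J, the cross of C57BL6/J with C3H/HeJ, were left out of the comparison.

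Inbred strains carry fixed and different alleles, so a gene can differ between them through its own sequence, its neighbours or the hormones and metabolites that reach the liver. Liver is the organ that turns over most fuel between meals, and restricted feeding is known to alter its genes for fat and glucose handling, drug and steroid metabolism, growth hormone action and the immune proteins it makes. A difference between strains that is present on both diets can be fixed. One called on a single diet can be taken to depend on diet only where the difference between diets itself passes. The array's probes were designed from reference mouse sequence, so a sequence variant under a probe and a difference in transcript level cannot be told apart, and in whole liver fewer cells of a type and less RNA per cell cannot be told apart.

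Signal levels set the limits of the comparison. The median log2 signal of an array lay between 6.21 and 7.32 in 63 of the 64 arrays of these 4 strains, while DBA/2J restricted replicate 6 stood apart at 8.29. In the same array the 3′ minus 5′ log2 signal of the Gapdh control probe sets was 2.51, against a median of -0.25 in its group, and that of the Actb control probe sets was 4.86, against a median of 1.30. Some counts over all genes below are given with all arrays and without this array. They are the calls on the restricted diet, the calls against every other strain, the differences between diets and the differences on the restricted diet alone. Other counts over all genes, among them those at a fold minimum and against single strains, are given with all arrays only. C57BL6/J restricted arrays had a mean array median of 6.38, against 6.81 in 129S1/SvImJ, 6.44 in C3H/HeJ and 7.08 in DBA/2J. The differences from 129S1/SvImJ, -0.43, and from DBA/2J, -0.69, had an adjusted p of 0.001 by two-sided exact permutation over 39 such tests, which rests on 0.00016, the smallest p that 8 against 8 arrays allow. Markers of hepatocytes (albumin, transthyretin, apolipoprotein genes and others) were the brightest list in every group, with mean log2 signals of 15.16 to 15.65 in the C57BL6/J restricted arrays.

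C57BL6/J livers differed from the mean of the 3 other strains in 3408 of 13630 genes on the restricted diet, 25.0% of the genes tested. Of these, 1678 were higher in C57BL6/J (12.3%) and 1730 were lower (12.7%), by limma with Benjamini-Hochberg adjustment over all genes and an adjusted p under 0.05. Each difference below is log2 C57BL6/J minus the mean log2 of the 3 strains, printed with its SE (n = 8 mice in every group), and a positive value means higher in C57BL6/J. At 1.5-fold or more, 907 genes were higher (6.65%) and 1117 lower (8.20%), 14.8% together, and 102 genes passed at 4-fold or more, 0.748%. Without DBA/2J restricted replicate 6 the counts were 1864 higher and 2098 lower.

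The single strains did not weigh alike in these counts. With all arrays, 4627 genes passed against DBA/2J alone (33.9%), 3216 against 129S1/SvImJ (23.6%) and 2284 against C3H/HeJ (16.8%). A gene called with the same sign against all 3 strains is a difference of C57BL6/J from each of them. There were 725 such genes, 5.32% of those tested, of which 390 were higher (2.86%) and 335 lower (2.46%). In 139 genes, 1.02%, the 8 C57BL6/J values did not overlap the 24 others, with 77 genes above (0.565%) and 62 below (0.455%). Without DBA/2J restricted replicate 6, 475 genes were higher and 497 lower than in every one of the 3 strains.

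The largest difference upward was in Nlrp12, an NLR-family protein expressed mainly in myeloid cells that dampens inflammatory signalling. Its log2 signal on the restricted diet was lowest 10.66, median 11.43 and highest 12.10 in C57BL6/J, against 3.57, 5.73 and 7.48 in 129S1/SvImJ, 6.16, 6.67 and 7.21 in C3H/HeJ and 3.35, 6.74 and 7.84 in DBA/2J. The C57BL6/J values lay apart from every other mouse, and the other 3 strains were mostly near or below the middle of the array. The difference was 5.19 ± 0.46 on the log2 scale, 36.5-fold, with an adjusted p of 3.65e-14, and it was 6.47 on the control diet. Pttg1 encodes securin, which restrains the separation of sister chromatids. Its lowest value was 12.97, its median 13.16 and its highest 13.30 in C57BL6/J, against 9.98, 10.45 and 10.81 in 129S1/SvImJ, 9.61, 9.89 and 10.21 in C3H/HeJ and 9.31, 10.26 and 10.70 in DBA/2J. All 24 other values lay more than a log2 unit below the lowest C57BL6/J value, and 3 of 3 probe sets for Pttg1 passed in the same direction. Its difference was 2.97 ± 0.15, or 7.82-fold (adjusted p = 5.72e-26).

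Several of the other large upward differences rested on genes near the bottom of the signal range in the other strains. Gm7969 differed by 5.06, with values in C57BL6/J from 9.23 to 11.24 and a single DBA/2J mouse, at 9.56, inside that range. Rpgrip1, a protein of the photoreceptor connecting cilium, differed by 3.84, with a second probe set called lower. Trim34a, a tripartite-motif gene, differed by 3.81 and also had a second probe set called lower; the mean over its probe sets was 0.19 with an adjusted p of 0.769. Trim30d, of the same gene family, differed by 3.04 with both probe sets higher. Ccnf, the F-box cyclin that targets cell cycle proteins for breakdown, differed by 3.75, and 2 of 2 probe sets passed. The remaining genes among the 12 largest were Adh6-ps1 at 3.8, Zfp874a at 3.62, Tmem267 at 3.6 and a probe set annotated to the locus of Mir1931 at 4.10, which does not measure the mature microRNA.

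Cyp2c37, an arachidonic acid-metabolising cytochrome P450 of liver, was also among the 12 largest upward and showed how unequal the 3 strains can be. Its lowest, median and highest signals were 14.15, 14.23 and 14.54 in C57BL6/J, against 6.57, 7.74 and 9.11 in 129S1/SvImJ, 12.41, 12.91 and 13.19 in C3H/HeJ and 13.09, 13.68 and 13.85 in DBA/2J. The C57BL6/J mice were above all others, and the 129S1/SvImJ mice were far below the rest. The difference was 6.4 from 129S1/SvImJ, 1.44 from C3H/HeJ and 0.68 from DBA/2J, so the mean of 2.84 ± 0.16 (adjusted p = 6.71e-23) is carried mostly by 1 strain. Genes of the Cyp2c family are close in sequence, and a probe set may bind more than its named member.

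The largest downward difference was in Ifi202b, an interferon-inducible DNA-binding protein of the PYHIN family. Its lowest, median and highest signals were 1.10, 2.30 and 4.90 in C57BL6/J, against 6.65, 7.47 and 8.58 in 129S1/SvImJ, 5.13, 7.47 and 8.51 in C3H/HeJ and 8.73, 9.40 and 10.48 in DBA/2J. All C57BL6/J values lay below every other mouse and below the middle of the array, where the size of a fold change is uncertain. The difference was -5.60 ± 0.53 (adjusted p = 4.02e-13), 48.4-fold lower, and -4.55 on the control diet. Mndal, another PYHIN member, differed the other way by 2.11.

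Cyp2c39, a P450 that hydroxylates retinoic acid in mouse liver, had a lowest value of 7.31, a median of 8.14 and a highest of 8.89 in C57BL6/J, against 12.28, 13.57 and 14.23 in 129S1/SvImJ, 11.21, 12.25 and 12.63 in C3H/HeJ and 8.75, 11.57 and 12.84 in DBA/2J. A single DBA/2J mouse, replicate 6, reached down into the C57BL6/J range. The difference was -4.17 ± 0.28, 18-fold lower (adjusted p = 6.72e-19), and -4.30 without that array. Pik3ap1, an adaptor that links receptors to phosphoinositide 3-kinase, ran from 7.74 to 8.49 with a median of 8.25 in C57BL6/J, against 11.45 to 11.94 with a median of 11.68 in 129S1/SvImJ, 10.89 to 12.15 with a median of 11.28 in C3H/HeJ and 10.58 to 11.52 with a median of 11.21 in DBA/2J. No value overlapped, both probe sets passed, and the difference was -3.19 ± 0.14 (adjusted p = 1.2e-29).

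Hsd3b5, a steroid-reducing enzyme found mainly in male mouse liver, differed by -3.17 ± 0.38, 9.02-fold lower (adjusted p = 1.14e-09). Its signals were lowest 6.70, median 8.07 and highest 10.56 in C57BL6/J, against 9.16, 11.70 and 12.53 in 129S1/SvImJ, 10.60, 12.09 and 12.67 in C3H/HeJ and 9.63, 11.99 and 12.82 in DBA/2J. Most C57BL6/J mice lay below the other strains, with 4 of the 24 others under the highest C57BL6/J value. On the control diet the difference was -1.18, and the change between diets, -2.0, did not pass (adjusted p = 0.0648). The other genes among the 12 largest downward were Elobl at -4.98, Tmem87a at -3.85, Hddc3 (an NADPH phosphatase) at -3.63, Cap1 (an actin-cycling protein) at -2.86, Mmp24 (a membrane-type matrix metalloproteinase) at -2.85, Cd1d2 (a lipid antigen-presenting protein) at -2.76, Cd207 (langerin) at -2.58 and the chemokine gene Ccl2 at -2.55. Elobl, Hddc3 and Cap1 did not overlap the other strains.

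**Figure D1:**
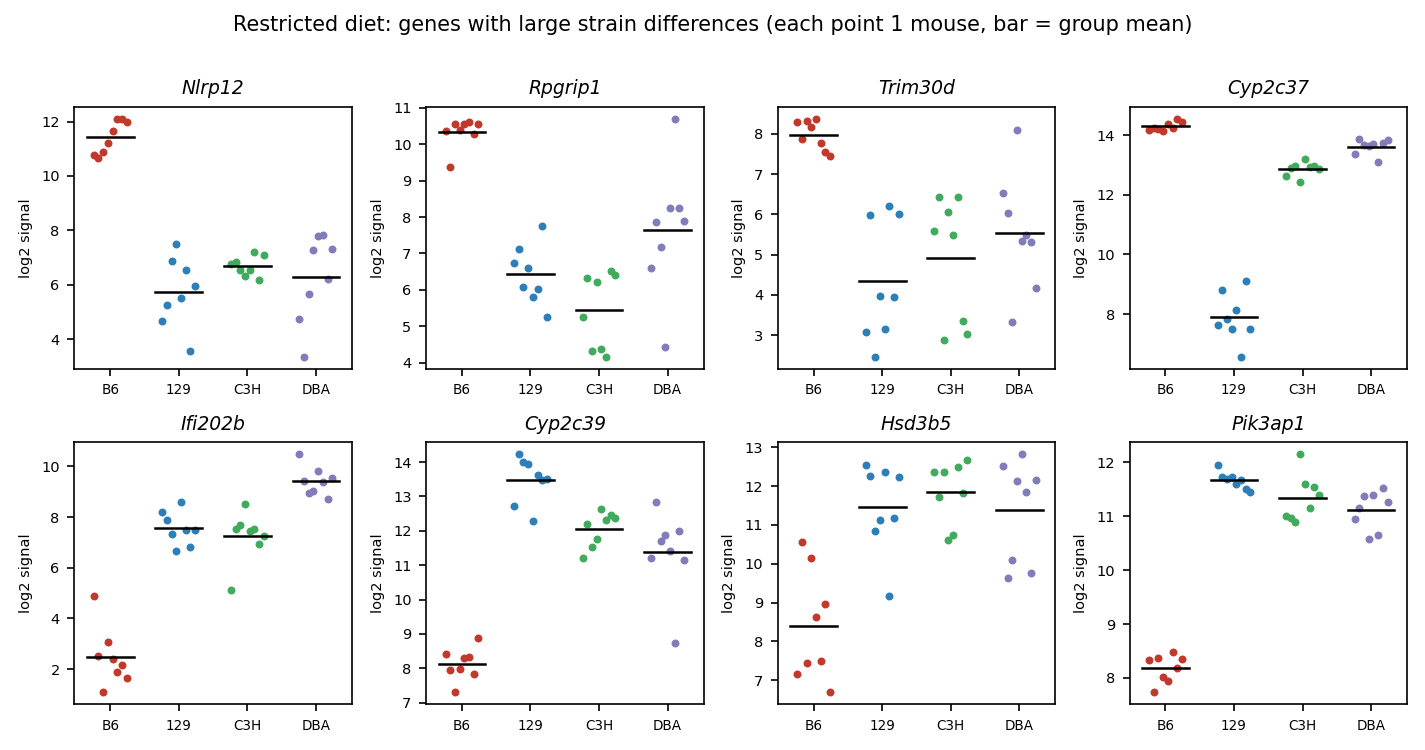
Log2 MAS5 signal (vertical axes) of 8 genes in the restricted C57BL6/J (B6), 129S1/SvImJ, C3H/HeJ and DBA/2J groups, named by their first letters or digits, each point 1 mouse and each line the group mean. In Nlrp12, Cyp2c37, Ifi202b and Pik3ap1 no C57BL6/J point overlaps the other strains, and Cyp2c37 is lowest in 129S1/SvImJ, with a median of 7.74.

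On the control diet the same comparison of strains gave 2660 genes, 19.5% of those tested, with 1374 higher (10.1%) and 1286 lower (9.44%). Both diets gave a call of the same sign in 1715 genes, which is 50.3% of the restricted calls and 64.5% of the control calls. A further 1681 genes passed on the restricted diet and not on the control diet (12.3%), yet 1499 of these, 89.2%, had the same sign on the control diet. The difference between the diets itself passed in 13 of the 1681, or 0.773%. These 13 genes, 0.0954% of all tested, passed on the restricted diet, missed the threshold on the control diet and passed in the difference between diets, and are called restricted-only here; for the other 1668 the diets were not shown to differ. The restricted and control comparisons use different mice of the same strains.

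Across all genes the difference between diets passed in 55, 0.404%, of which 29 were positive (0.213%) and 26 negative (0.191%), and 1185 genes had an unadjusted p under 0.05 (8.69%). Besides the 13 restricted-only genes there were 23 that passed on the control diet alone (0.169%), 11 that passed on both diets with opposite signs and 8 that passed on both with the same sign and a different size. Without DBA/2J restricted replicate 6 the difference between diets passed in 52 genes with a positive and 66 with a negative value, and the restricted-only genes were 18 higher and 22 lower, among them 12 of the 13. The difference between diets has a larger SE than a strain difference on 1 diet, so its test has less power. In simulated data of the same 13630 genes with independent noise, 100 genes carried a true difference of 1 log2 unit in each comparison. It was recovered in 73% for the restricted strain difference and in 44% for the difference between diets. Far fewer genes were changed there than the 25.0% called on the restricted diet, so these percentages may not hold for the real data.

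**Figure D2:**
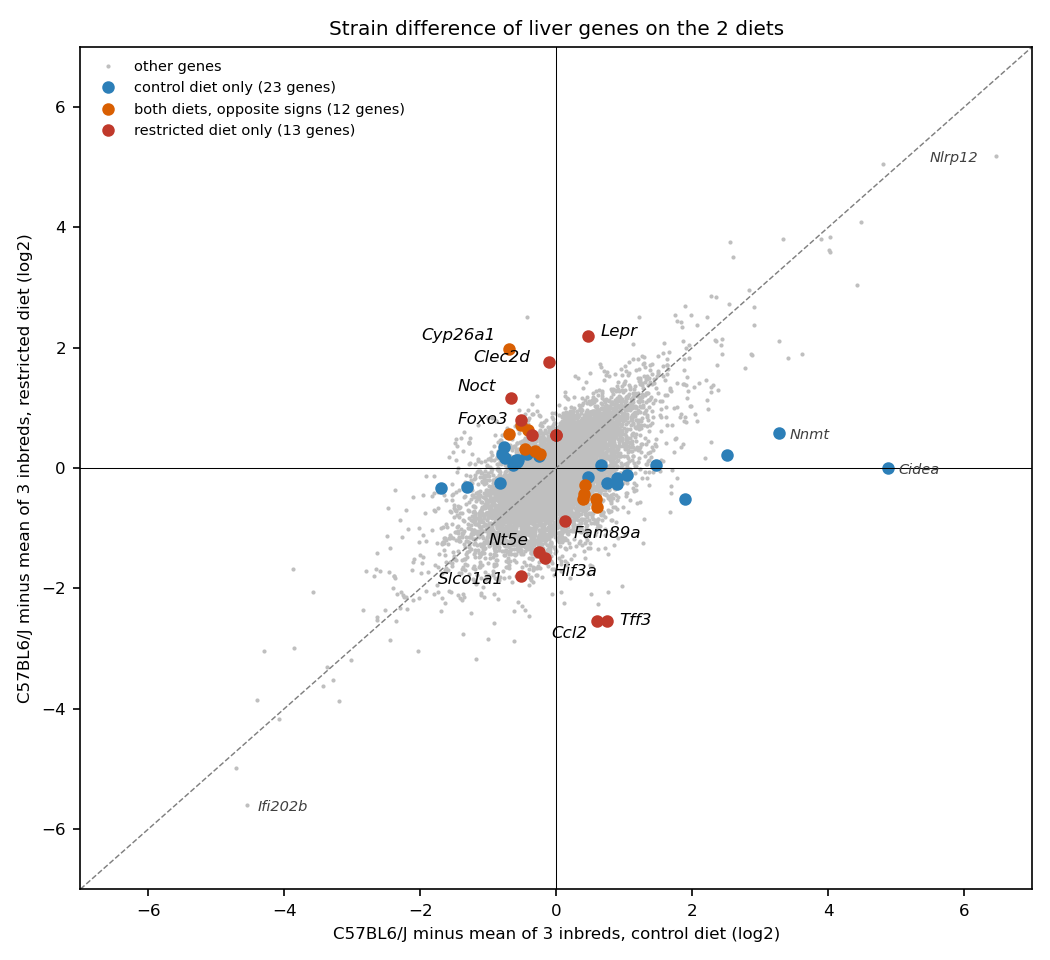
Log2 difference of C57BL6/J minus the mean of 3 strains on the restricted diet (vertical axis) against the same difference on the control diet (horizontal axis) for 13630 genes, with colours for the 13 restricted-only genes, the 23 control-only genes and the 12 called on both diets with opposite signs, and a dashed line where the diets are equal. Named points away from the diagonal include Tff3 at -2.55 on the restricted diet and 0.75 on the control diet, and Cidea at 0.01 and 4.88.

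The clearest diet-dependent strain difference was in Cyp26a1, the enzyme that breaks down retinoic acid, the active form of vitamin A, and that retinoic acid itself induces. On the restricted diet its lowest, median and highest signals were 9.15, 9.94 and 10.41 in C57BL6/J, against 6.92, 7.86 and 9.09 in 129S1/SvImJ, 7.04, 7.66 and 9.24 in C3H/HeJ and 6.99, 7.76 and 9.03 in DBA/2J. On the control diet they were 6.70, 7.21 and 7.76 in C57BL6/J, against 6.82, 7.62 and 8.18 in 129S1/SvImJ, 6.56, 8.28 and 9.09 in C3H/HeJ and 7.23, 7.96 and 8.42 in DBA/2J. All but 1 of the 24 other restricted mice lay below the lowest restricted C57BL6/J mouse, while the control C57BL6/J mice sat in the lower part of the range of the others.

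Cyp26a1 was higher in C57BL6/J on the restricted diet, by 1.99 ± 0.23 (3.96-fold, adjusted p = 6.05e-10), and lower on the control diet, at -0.70 ± 0.23 (adjusted p = 0.0249). The difference between diets was 2.68 ± 0.33 with an adjusted p of 2.01e-07, and it passed under 15 of 15 alternative settings. After quantile normalization the control difference was -0.61 and did not pass (adjusted p = 0.0656), and the opposite signs were called under 13 of the 15. Restriction raised Cyp26a1 by 2.64 in C57BL6/J (adjusted p = 5.5e-10), against a mean change of -0.05 in the other 3 strains (adjusted p = 0.89). The gene counts among those called on both diets with opposite signs.

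The promoters of the diet-dependent genes were read from RefSeq sequence on the GRCm38.p6 build, covering 250 bases before and 50 after the annotated start. The motifs searched, on both strands, were a direct repeat of 1 spelling of the retinoic acid receptor half-site (AGTTCA, any 5 bases, AGTTCA), a forkhead site (GTAAACA) and an interferon-stimulated response element (GAAA, any 2 bases, GAAA). Only these letters were searched, so the shares of promoters below hold for these spellings alone. The motifs were chosen for Cyp26a1, for Foxo3 and for the interferon genes, and the 3 sequences with a match are shown because they belong to genes described here. Capitals mark the matched letters, and each window lies on the plus strand at chr19:37697558-37697857 for Cyp26a1, chr19:23140976-23141275 for Klf9 and chr6:129180365-129180664 for Clec2d.
Cyp26a1: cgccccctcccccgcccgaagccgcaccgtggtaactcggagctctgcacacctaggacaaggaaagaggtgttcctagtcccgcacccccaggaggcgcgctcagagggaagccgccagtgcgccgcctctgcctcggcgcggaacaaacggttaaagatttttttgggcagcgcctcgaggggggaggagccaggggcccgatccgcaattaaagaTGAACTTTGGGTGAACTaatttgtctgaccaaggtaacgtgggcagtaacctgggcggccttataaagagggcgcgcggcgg
Klf9: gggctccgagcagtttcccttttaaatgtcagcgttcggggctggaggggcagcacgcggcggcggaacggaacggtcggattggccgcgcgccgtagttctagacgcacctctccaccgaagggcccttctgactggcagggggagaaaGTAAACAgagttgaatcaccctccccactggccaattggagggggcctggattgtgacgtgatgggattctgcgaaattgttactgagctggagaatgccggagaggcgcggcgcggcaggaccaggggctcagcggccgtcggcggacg
Clec2d: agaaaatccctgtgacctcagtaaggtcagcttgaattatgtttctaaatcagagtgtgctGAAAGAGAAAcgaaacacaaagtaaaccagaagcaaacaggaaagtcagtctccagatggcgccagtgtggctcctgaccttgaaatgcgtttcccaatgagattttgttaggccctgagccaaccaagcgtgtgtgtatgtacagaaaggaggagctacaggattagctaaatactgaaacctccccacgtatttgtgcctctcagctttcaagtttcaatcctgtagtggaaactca
The Cyp26a1 match reads on the opposite strand and lies at positions -32 to -16 from the start, and 8 of 32851 RefSeq promoters hold this motif, 0.0244%. The Klf9 forkhead match lies at -100 to -94 and the motif is in 3.65% of all promoters. The Clec2d match lies at -189 to -180 and the motif is in 3.44%. Of the 25 genes that were restricted-only or of opposite sign, 21 had a promoter in the table, and each motif was found in 1 of them. A match describes letters in the window and no binding was measured.

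Of the 13 restricted-only genes, 7 were higher in C57BL6/J (0.0514% of genes tested) and 6 were lower (0.0440%). Against each of the 3 strains on its own 8 of the 13 passed with 1 sign, and in none of them were the 8 C57BL6/J mice wholly separate from the 24 others. The diet effect itself passed in 730 genes in C57BL6/J (5.36%), 361 upward (2.65%) and 369 downward (2.71%). In the mean of the other strains it passed in 2383 (17.5%), 1113 upward (8.17%) and 1270 downward (9.32%). The C57BL6/J effect rests on 8 mice per diet and the mean of the others on 24 per diet, so the mean has the smaller SE. These counts therefore do not compare the size of the response to restriction. Among the 13, with the same unequal SEs, the diet effect passed in C57BL6/J and not in the mean of the other strains in 5 genes. It passed in the mean of the others and not in C57BL6/J in 4, and in both in 4.

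Lepr, the leptin receptor, whose soluble form is made by liver, had the largest restricted-diet difference among the 7 higher genes. Restricted signals were lowest 10.05, median 11.07 and highest 11.67 in C57BL6/J, against 6.98, 7.86 and 8.88 in 129S1/SvImJ, 9.30, 9.85 and 10.28 in C3H/HeJ and 7.56, 8.39 and 9.52 in DBA/2J. Control signals were 7.87, 8.65 and 9.56 in C57BL6/J, against 6.88, 7.35 and 9.34 in 129S1/SvImJ, 7.86, 9.45 and 10.51 in C3H/HeJ and 6.63, 7.31 and 7.72 in DBA/2J. The restricted C57BL6/J group had the highest median of all 8 groups, and 2 of the 24 other restricted mice, both C3H/HeJ, lay above its lowest mouse. The difference was 2.20 ± 0.25 (4.60-fold, adjusted p = 1.65e-10) on the restricted diet and 0.47 on the control diet (adjusted p = 0.193), and the difference between diets was 1.73 ± 0.35 (adjusted p = 0.0057). Restriction raised Lepr by 2.33 in C57BL6/J and by a mean of 0.60 in the others, where DBA/2J alone passed, at 1.11. All 3 Lepr probe sets were higher on the restricted diet, and for 1 of them the difference between diets passed.

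Clec2d encodes a C-type lectin-related ligand of natural killer cell receptors. Signals of Clec2d on the restricted diet were lowest 10.53, median 11.23 and highest 11.54 in C57BL6/J, against 8.69, 9.19 and 10.99 in 129S1/SvImJ, 8.47, 9.97 and 10.92 in C3H/HeJ and 8.46, 8.88 and 9.68 in DBA/2J. On the control diet the medians were 10.13 in C57BL6/J, against 10.27, 10.50 and 9.92 in 129S1/SvImJ, C3H/HeJ and DBA/2J, and the groups overlapped. The restricted difference was 1.76 ± 0.27 (3.38-fold, adjusted p = 7.51e-07), the control difference -0.11, and the difference between diets 1.87 ± 0.38 (adjusted p = 0.00677). Clec2d rose with restriction in C57BL6/J, by 1.05 (adjusted p = 0.046), and fell by a mean of 0.81 in the others (adjusted p = 0.0011). It met the restricted-only conditions under 15 of 15 alternatives.

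Foxo3 encodes a forkhead transcription factor that insulin signalling keeps out of the nucleus. On the restricted diet its signals were lowest 9.38, median 10.46 and highest 10.82 in C57BL6/J, against 9.12, 9.79 and 9.98 in 129S1/SvImJ, 9.37, 9.77 and 10.22 in C3H/HeJ and 7.72, 9.19 and 10.16 in DBA/2J. The groups overlapped widely, with 18 of the 24 others above the lowest C57BL6/J mouse. The difference was 0.81 ± 0.23 (1.75-fold, adjusted p = 0.00569) on the restricted diet, -0.53 on the control diet (adjusted p = 0.0965), and 1.33 ± 0.32 between diets (adjusted p = 0.0349). With the mean of the Foxo3 probe sets the difference between diets, 0.71, no longer passed.

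Noct encodes nocturnin, a rhythmic phosphatase of NADP coenzymes that is tied to lipid metabolism in mice. Restricted mice had signals of lowest 10.36, median 11.23 and highest 12.13 in C57BL6/J, against 9.69, 10.55 and 12.12 in 129S1/SvImJ, 7.03, 8.96 and 10.45 in C3H/HeJ and 9.51, 10.46 and 11.33 in DBA/2J. C3H/HeJ was the lowest group, and 10 of the 24 other mice lay above the lowest C57BL6/J mouse. The restricted difference was 1.17 ± 0.32 (2.25-fold, adjusted p = 0.00485), the control difference -0.66 (adjusted p = 0.15) and the difference between diets 1.83 ± 0.46 (adjusted p = 0.0456). Against single strains Noct passed for C3H/HeJ alone, at 2.19. The time of day of collection is not given in the labels used here, so its part in this gene was not tested.

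The remaining upward genes had smaller differences. Lin7a, a scaffold of cell junctions, differed by 0.55 on the restricted diet and 0.91 between diets. Tsen34, a subunit of the tRNA splicing endonuclease, differed by 0.55 on both measures, and so did Pbld2. Lin7a was no longer restricted-only without DBA/2J restricted replicate 6, because its control difference of -0.36 then passed.

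Tff3, a secreted trefoil peptide best known from mucus-producing epithelia, had the largest difference between diets among the 13 genes. Its restricted signals were lowest 3.81, median 5.03 and highest 6.13 in C57BL6/J, against 3.97, 6.22 and 7.49 in 129S1/SvImJ, 7.25, 8.57 and 10.38 in C3H/HeJ and 7.13, 8.17 and 9.33 in DBA/2J. Its control signals were 6.51, 8.88 and 10.26 in C57BL6/J, against 4.19, 5.00 and 6.17 in 129S1/SvImJ, 8.21, 8.81 and 11.72 in C3H/HeJ and 8.48, 9.28 and 11.33 in DBA/2J. Restricted C57BL6/J mice were as low as 129S1/SvImJ mice, whereas control C57BL6/J mice ranged with C3H/HeJ and DBA/2J. The restricted difference was -2.55 ± 0.39 (5.84-fold lower, adjusted p = 6.67e-07), the control difference 0.75 (adjusted p = 0.187) and the difference between diets -3.29 ± 0.55 (adjusted p = 0.000601). Tff3 fell by 3.59 with restriction in C57BL6/J (adjusted p = 1.6e-07), and the mean change in the others was -0.30 (adjusted p = 0.52). Tff3 met the conditions under 15 of 15 alternatives, and the difference from 129S1/SvImJ alone, -0.84, did not pass (adjusted p = 0.2).

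Ccl2 encodes the chemokine that draws monocytes into tissue. Ccl2 signals on the restricted diet were lowest 2.05, median 4.71 and highest 6.37 in C57BL6/J, against 6.54, 7.29 and 7.51 in 129S1/SvImJ, 5.73, 6.54 and 7.52 in C3H/HeJ and 5.67, 7.40 and 8.75 in DBA/2J. The C57BL6/J mice lay near or below the middle of the array, and 5 of the 24 others were under the highest of them. The restricted difference was -2.55 ± 0.41 (5.85-fold lower, adjusted p = 1.81e-06), the control difference 0.60 (adjusted p = 0.334) and the difference between diets -3.15 ± 0.58 (adjusted p = 0.00216). Macrophage markers, as a list of 7, had a mean log2 signal of 9.82 in restricted C57BL6/J, against 9.44 in 129S1/SvImJ, 10.01 in C3H/HeJ and 10.17 in DBA/2J, with an adjusted p of 0.2 or above for each pair by exact permutation. The same list averaged, on the control diet, 10.38 in C57BL6/J, against 9.21 in 129S1/SvImJ, 9.58 in C3H/HeJ and 9.93 in DBA/2J. Of its members Marco at 2.23, Cd5l at 1.30, Vsig4 at 0.59 and Clec4f at 0.54 were higher in C57BL6/J on that diet, and their part in the difference between diets was not tested.

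Slco1a1 encodes a liver uptake transporter for organic anions and steroid conjugates that is male-predominant in mice. Its restricted signals were lowest 10.23, median 11.47 and highest 13.37 in C57BL6/J, against 12.56, 13.46 and 13.99 in 129S1/SvImJ, 11.89, 12.63 and 13.55 in C3H/HeJ and 13.41, 14.04 and 14.68 in DBA/2J. C57BL6/J was the lowest group and did not overlap DBA/2J. The restricted difference was -1.79 ± 0.22 (3.46-fold lower, adjusted p = 3.77e-09), the control difference -0.52 (adjusted p = 0.0965) and the difference between diets -1.27 ± 0.32 (adjusted p = 0.0438). Slco1a1 fell by 2.18 with restriction in C57BL6/J and by a mean of 0.91 in the others. The control difference shares the sign, and Slco1a1 met the restricted-only conditions under 9 of 15 alternatives.

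Nt5e encodes CD73, the surface enzyme that makes adenosine from AMP. Its restricted signals were lowest 7.52, median 8.13 and highest 8.38 in C57BL6/J, against 8.21, 8.75 and 9.28 in 129S1/SvImJ, 9.56, 10 and 10.28 in C3H/HeJ and 9.0, 9.65 and 10.46 in DBA/2J. Only 129S1/SvImJ overlapped C57BL6/J, by 3 mice. The restricted difference was -1.39 ± 0.17 (2.62-fold lower, adjusted p = 9.38e-10), the control difference -0.26 and the difference between diets -1.13 ± 0.23 (adjusted p = 0.0072). Restriction raised Nt5e by a mean of 0.62 in the other strains (adjusted p = 4.4e-05, limma), with 1.22 in C3H/HeJ and 0.61 in DBA/2J. The change in C57BL6/J, -0.51, was of similar size and opposite sign, and with fewer mice behind it did not pass. Of the other downward genes, Hif3a, a hypoxia-inducible factor subunit, differed by -1.49 on the restricted diet and -1.33 between diets, and Fam89a by -0.89 and -1.02.

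**Figure D3:**
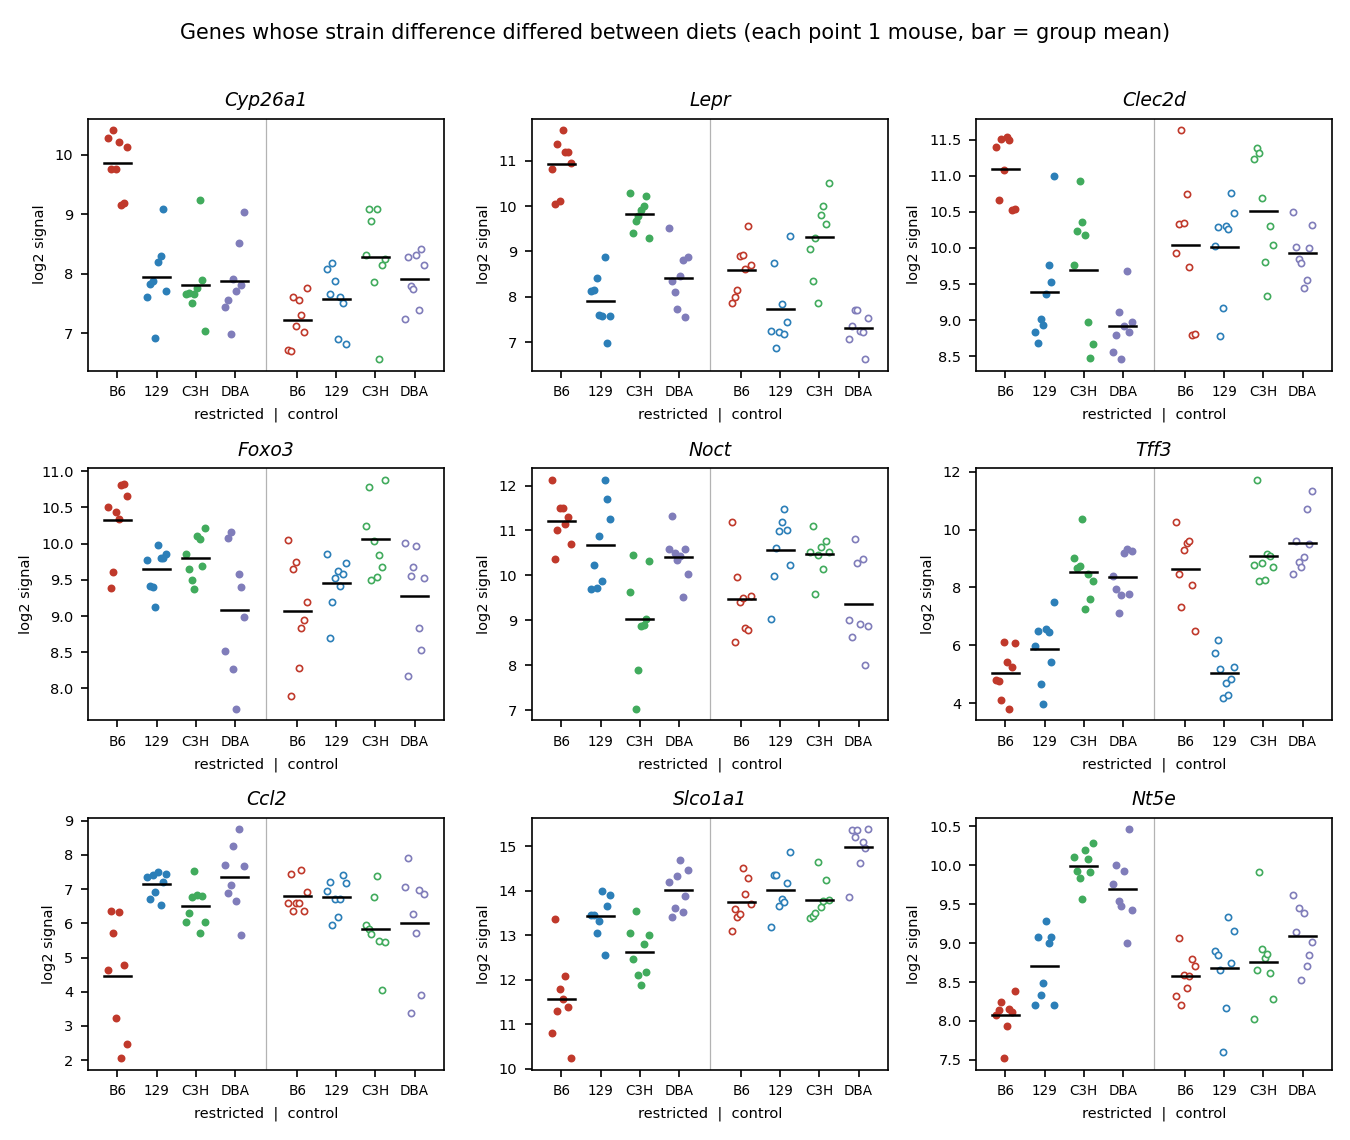
Log2 MAS5 signal (vertical axes) of 9 genes in C57BL6/J (B6), 129S1/SvImJ, C3H/HeJ and DBA/2J, named by their first letters or digits, with restricted mice as filled points left of control mice as open points, and a line at each group mean. Restricted C57BL6/J mice stand highest in Cyp26a1 (median 9.94) and Lepr (median 11.07), and lowest in Ccl2 (median 4.71). Control C57BL6/J mice overlap every other strain in Cyp26a1, but lie wholly above DBA/2J in Lepr and wholly above 129S1/SvImJ in Tff3.

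Besides Cyp26a1, 11 genes passed on both diets with opposite signs, 12 in all and 0.0880% of genes tested. Snhg1, a host gene of small nucleolar RNAs, differed by 0.64 on the restricted diet, -0.42 on the control diet and 1.05 ± 0.20 between diets (adjusted p = 0.0034). Carmil1, which regulates actin capping, gave 0.72, -0.52 and 1.24, and Gpr155 gave 0.32, -0.46 and 0.78. Gnai2, an inhibitory G protein subunit, gave -0.29, 0.43 and -0.71. Klf9, a transcription factor induced by glucocorticoids and thyroid hormone, gave 0.57, -0.70 and 1.26, although with the mean of its probe sets the difference between diets was 0.26 and did not pass. The others, named after their values were seen, were Mfsd4b1 and Ipo5 upward on the restricted diet, and Krt8, Slc11a1, Mpeg1 and Ifi47 downward. Of these, Slc11a1 and Mpeg1 are phagocyte genes and Ifi47 is an interferon-inducible GTPase. Ipo5 is the 1 gene of the 12 whose difference between diets, 0.48, did not pass (adjusted p = 0.0518). Out of 15 alternatives the opposite signs were called in 13 for Snhg1, in 12 for Gnai2, Klf9, Mpeg1 and Ifi47, in 11 for Gpr155 and Krt8, in 9 for Carmil1 and Mfsd4b1, in 7 for Slc11a1 and in 6 for Ipo5. With averaged probe sets the opposite signs were no longer called in Snhg1, Gnai2, Mfsd4b1 and Ipo5, as well as in Klf9. After quantile normalization the restricted differences of Gpr155, 0.21, Mfsd4b1, 0.20, and Ipo5, 0.16, did not pass (adjusted p = 0.262, 0.246 and 0.231, limma). Neither did the control differences of Carmil1, -0.47, Ifi47, 0.55, and Slc11a1, 0.34 (adjusted p = 0.16, 0.0706 and 0.102, limma).

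The converse set shows where C57BL6/J stood apart on the control diet and not on the restricted one. Cidea, a lipid droplet protein that rises in fatty liver, had restricted signals of lowest 2.58, median 4.64 and highest 6.63 in C57BL6/J, against group medians of 3.78, 3.73 and 5.61 in 129S1/SvImJ, C3H/HeJ and DBA/2J. In control C57BL6/J mice they were 7.19, 8.79 and 10.74, against group medians of 3.41, 3.40 and 3.68. The control C57BL6/J mice were nearly all above the others, and the restricted ones overlapped them. The difference was 0.01 on the restricted diet and 4.88 on the control diet, and -4.88 ± 0.88 between diets (adjusted p = 0.0017). Cidec, its relative, gave 0.22, 2.52 and -2.29 (adjusted p = 0.00338). Nnmt, which methylates nicotinamide, gave 0.59, 3.28 and -2.69 (adjusted p = 0.00119), since it rose with restriction by 1.64 in C57BL6/J and by a mean of 4.33 in the other strains. In the list of 17 genes for lipid droplets and fatty acid uptake, 3 were higher and 2 lower on the restricted diet, against 7 and 3 on the control diet. On the restricted diet 29.4% of the list passed, near the 25.0% of all genes. On the control diet 19.5% of all genes passed, 10.1% higher and 9.44% lower. Without DBA/2J restricted replicate 6 the restricted counts were 3 and 4. Pparg, the fat-storing nuclear receptor on that list, was higher by 2.05, a value carried by C3H/HeJ at 4.72, with 0.88 from 129S1/SvImJ and 0.56 from DBA/2J.

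Cyp2c70, which makes the muricholic bile acids of mice, had one of the smallest p-values between diets. Its signals on the restricted diet were lowest 13.78, median 14.09 and highest 14.25 in C57BL6/J, against medians of 14.57, 14.62 and 15.03 in 129S1/SvImJ, C3H/HeJ and DBA/2J. On the control diet they were 11.26, 11.57 and 12.45 in C57BL6/J, against medians of 13.05, 14.84 and 15. C57BL6/J was the lowest strain on both diets and came much closer to the rest on the restricted one. The difference was -0.67 ± 0.16 (adjusted p = 0.000915) on the restricted diet, -2.47 on the control diet and 1.80 ± 0.22 between them (adjusted p = 2.01e-07). After quantile normalization the restricted difference was -0.37 and did not pass (adjusted p = 0.0632). Cyp8b1, which directs bile acid synthesis towards cholic acid, was lower, at -1.06 on the restricted diet, against -0.08 on the control diet. Its difference between diets, -0.98, did not pass (adjusted p = 0.0518), but at -1.05 it did without DBA/2J restricted replicate 6 (adjusted p = 0.00669).

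Interferon switches on antiviral and antigen-presenting genes, and 3 such lists are given here on both diets; the difference between their medians was not tested. Macrophage markers, given above with Ccl2, were also higher in C57BL6/J on the control diet for 4 of the 7, and their part in these lists was not tested. Of 24 measured type I interferon-stimulated genes, 2 were higher and 4 lower on the restricted diet, with a median difference of -0.10, against 10 higher and 1 lower and a median of 0.49 on the control diet. The median over all 13630 genes was -0.07 on the restricted and -0.04 on the control diet. The restricted calls were 25% of this list, the same share as the 25.0% of all genes. On the control diet 10.1% of all genes were higher and 9.44% lower. Usp18, which shuts off interferon receptor signalling, was control-only, at -0.26 on the restricted diet, 0.89 on the control diet and -1.15 between diets (adjusted p = 0.0318); after quantile normalization the last was -1.07 and did not pass (adjusted p = 0.117). Oas1a, a sensor of double-stranded RNA, was lower, at -0.78 on the restricted diet, against 0.22 on the control diet, and Ifi27 was lower, at -0.67. Ifih1, a cytosolic RNA sensor, was higher on both, by 0.39 and 0.54. Apart from Usp18, no gene of this list passed the test between diets with all arrays; Oas1a did without DBA/2J restricted replicate 6, at -0.99 (adjusted p = 0.0394).

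Of 8 interferon-gamma-inducible GTPases, 0 were higher and 2 lower on the restricted diet, with a median of -0.03, against 6 higher and 0 lower and a median of 0.97 on the control diet. The restricted calls were 25% of the list, against 25.0% of all genes, and on the control diet 10.1% of all genes were higher. Gbp3 was control-only, at 0.05, 1.46 and -1.41 between diets (adjusted p = 0.0456), which after quantile normalization was -1.24 and did not pass (adjusted p = 0.125). Igtp gave -0.34, 0.62 and -0.97, and between diets did not pass with all arrays (adjusted p = 0.0518) but did without DBA/2J restricted replicate 6, at -0.94 (adjusted p = 0.0432). Gbp7 was lower, at -0.78 on the restricted diet, against 0.17 on the control diet, and its difference between diets had an adjusted p of 0.0518 with all arrays and 0.0377 without DBA/2J restricted replicate 6. After quantile normalization these GTPases numbered 0 higher and 1 lower on the restricted diet and 6 and 0 on the control diet.

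Among 19 genes of antigen presentation by MHC molecules, 2 were higher and 5 lower on the restricted diet with a median of -0.20, against 7 and 1 with a median of 0.51 on the control diet. On the restricted diet 36.8% of this list passed, against 25.0% of all genes, and on the control diet 10.1% of all genes were higher. The 2 higher genes, H2-K1 at 1.13 and H2-D1 at 1.22, encode class I chains whose alleles differ between these strains, and H2-D1 had probe sets called in both directions. The difference for H2-K1 was largest from C3H/HeJ, at 2.94. H2-Ea, a class II chain that C57BL6/J mice are known to lack through a deletion, was lower, at -2.06. Tap1, a peptide transporter, gave 0.03 on the restricted diet and 0.82 on the control diet, and the difference between diets, -0.79, did not pass with all arrays (adjusted p = 0.0644) but did without DBA/2J restricted replicate 6 (adjusted p = 0.049). Without that array H2-D1 also passed between diets, at -0.62 (adjusted p = 0.00196), and so did H2-Eb1, at -1.26 (adjusted p = 0.0446, limma). The list then gave 2 higher and 7 lower on the restricted diet. After quantile normalization with all arrays H2-Eb1 passed between diets, at -1.30, whereas H2-D1 and Tap1 did not (adjusted p = 0.0457, 0.931 and 0.215, limma). T and B cell markers had a mean log2 signal of 5.51 in restricted C57BL6/J, against 6.37 in 129S1/SvImJ (adjusted p = 0.043, exact permutation), 5.81 in C3H/HeJ (adjusted p = 0.55) and 6.46 in DBA/2J (adjusted p = 0.035). Of 4 such markers measured 1 was lower, and the part of these cells in the immune genes was not tested.

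**Figure D4:**
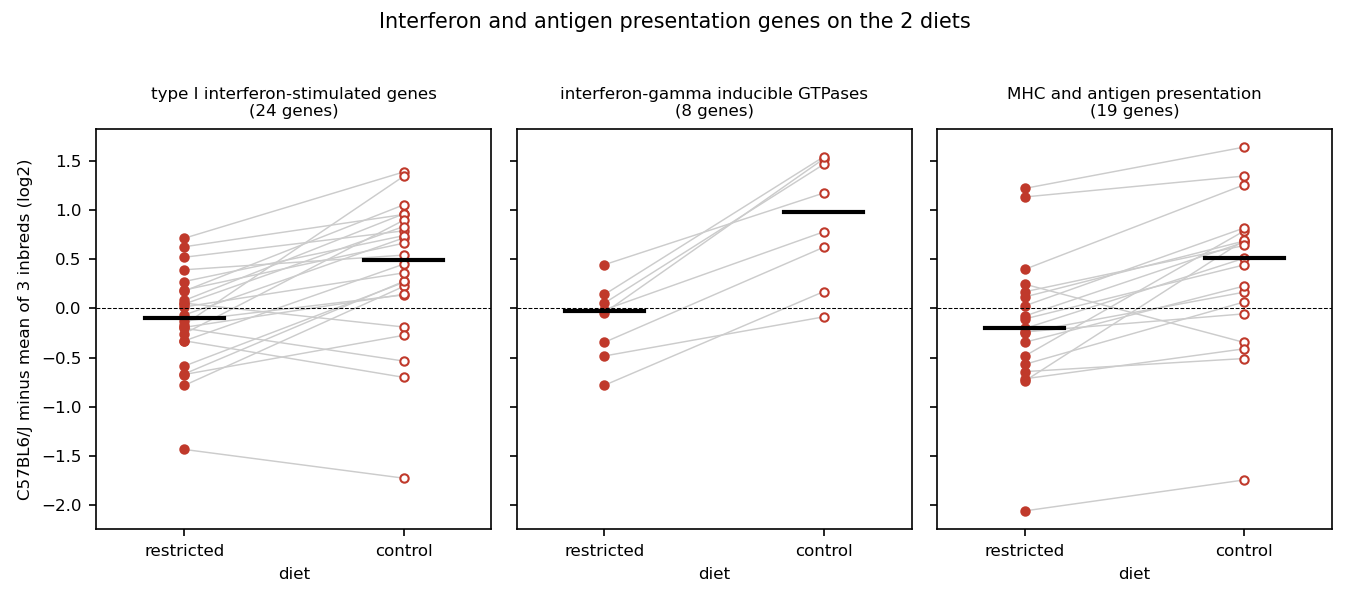
Log2 difference of C57BL6/J minus the mean of 3 strains (vertical axis) for each gene of 3 lists, with the restricted diet left of the control diet and a bar at the list median. The medians are -0.10 and 0.49 for 24 type I interferon-stimulated genes, -0.03 and 0.97 for 8 interferon-gamma-inducible GTPases, and -0.20 and 0.51 for 19 MHC and antigen presentation genes.

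Genes more active in male than in female liver, which follow the pulsatile growth hormone of males, were more often lower than higher in C57BL6/J. Of 13 measured, 7 were lower and 1 higher on the restricted diet, where 12.7% of all genes were lower, with a median of -0.79, and 6 were lower and 2 higher on the control diet, with a median of -0.52. The lower ones included Hsd3b5 and Slco1a1, described above, Cyp4a12a (a fatty acid and arachidonic acid hydroxylase) at -2.17 ± 0.39 and Cyp2d9 (a testosterone hydroxylase) at -0.61, which after quantile normalization was -0.15 and did not pass (adjusted p = 0.307). With quantile normalization 6 were lower and 0 higher, with a median of -0.42. Of 14 female-biased genes, 4 were higher and 3 lower with a median of 0.37, and without DBA/2J restricted replicate 6, 5 and 2. Over all genes 12.3% were higher and 12.7% lower. Among them Hamp2, a hepcidin-family gene, was lower, at -1.82.

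Cyp2b9, a female-biased P450, showed a strain pattern of its own. Its restricted signals were lowest 11.48, median 12.54 and highest 12.98 in C57BL6/J, against 5.40, 6.05 and 7.19 in 129S1/SvImJ, 12.18, 12.86 and 13.24 in C3H/HeJ and 9.11, 11.19 and 12.35 in DBA/2J. It was far lower in 129S1/SvImJ, and C57BL6/J overlapped C3H/HeJ and DBA/2J. The mean difference of 2.52 ± 0.57 (adjusted p = 0.000575) came from 6.22 against 129S1/SvImJ, -0.33 against C3H/HeJ and 1.66 against DBA/2J. On the control diet it was -0.43, and the difference between diets, 2.94, did not pass (adjusted p = 0.0844).

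Among 17 genes for carboxylesterases, flavin monooxygenases and aldehyde oxidases, 5 were higher and 1 lower on the restricted diet, against 3 and 4 on the control diet, and after quantile normalization 10 were higher and 1 lower on the restricted diet. On the deposited scale 35.3% of this list passed on the restricted diet, against 25.0% of all genes. After quantile normalization 1566 of all 13630 genes were higher and 1135 lower. Xdh, the xanthine dehydrogenase that makes uric acid, was higher by 1.58 ± 0.26, Aox3 by 1.13 and Aox1 by 0.96, and Ces1g, a triglyceride-hydrolysing carboxylesterase, by 0.86. Of 17 cytosolic heat shock proteins, 5 were higher and 0 lower with a median of 0.34, although 2 were lower when the array median was a covariate. The 29.4% of this list that passed is near the 25.0% of all genes in either direction, and 12.3% of all genes were higher. Hspb1, a small chaperone, led them at 1.39 ± 0.20, with 2.31 on the control diet. Both metallothioneins, which bind zinc, were lower, Mt1 at -1.70 and Mt2 at -1.79 ± 0.34. Slc1a2, a glutamate transporter of pericentral hepatocytes, was higher by 2.54 ± 0.18, and Vnn1, the pantetheinase, by 1.67 ± 0.22.

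Genes that were named for their role in fasting or in fat and bile acid metabolism mostly gave small differences. Fgf21, the fasting hormone of liver, was lower, at -1.17 (adjusted p = 0.00119), and so was Apoa4, at -1.06, or -0.65 after quantile normalization. Scd1, the stearoyl-CoA desaturase, was lower, at -0.69 (adjusted p = 0.0151), and after quantile normalization its difference was 0.24. Igf1, at -0.31, did not pass with all arrays (adjusted p = 0.25) but was lower without DBA/2J restricted replicate 6, at -0.46 (adjusted p = 3.96e-05). The differences of Fasn at -0.25, Pck1 at -0.19, Srebf1 at -0.08, Cyp7a1 at 0.08, Cyp2b10 at 0.26 and Cyp2b13 at -0.59 did not pass. Of 21 cholesterol synthesis genes, 1 was higher and 5 were lower, so that 28.6% passed in either direction, near the 25.0% of all genes. Over all genes 12.7% were lower, and the list median was -0.37, against -0.07 over all genes. Without DBA/2J restricted replicate 6, 10 were lower. After quantile normalization 1 was higher and 5 were lower with a median of -0.41, against 0.03 over all genes.

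A list of 6 genes with known variants between these strains gave 4 lower and 0 higher. The share of this list that passed was 66.7%, where 25.0% of all genes passed and 12.7% were lower. Nnt, which has a deletion in C57BL6/J, was lower, at -1.14 ± 0.17 on the restricted diet and -1.28 on the control diet. Alad, the haem synthesis enzyme duplicated in DBA/2J, was lower, at -1.26 ± 0.11 with no overlap between C57BL6/J and the other mice. Glo1, the glyoxalase with copy-number variants, was lower, at -1.04 ± 0.15. Hc, complement component C5, which DBA/2J mice lack, differed by 1.89 from DBA/2J, whereas its mean difference of 0.31 did not pass (adjusted p = 0.142). The difference between diets did not pass for any gene of this list.

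Lists of abundant liver products need the scale of the arrays beside them. Of 22 acute phase proteins 16 were lower in C57BL6/J and 0 higher, with a median of -0.74, of 19 apolipoprotein genes 11 were lower and 0 higher, and of 30 oxidative phosphorylation genes 16 were lower and 0 higher. Over all genes 12.7% were lower and 12.3% higher. Without DBA/2J restricted replicate 6 the lower genes numbered 16, 13 and 25 in these 3 lists. After quantile normalization the same lists gave 8 lower and 1 higher, 4 lower and 2 higher, and 6 lower and 2 higher. Of all 13630 genes 1135 were then lower and 1566 higher. The 7 measured hepatocyte markers had a mean log2 signal of 15.48 in C57BL6/J, against 16.19 in 129S1/SvImJ, 16.09 in C3H/HeJ and 16.46 in DBA/2J (adjusted p = 0.001 each, exact permutation). The median difference varied with signal level over all genes. It was -0.38 for 4012 genes below a mean log2 signal of 7, 0.07 for 3532 genes between 9 and 11, and -0.60 for 128 genes above 15, and after quantile normalization it was -0.02, 0.02 and 0.06 in the same 3 groups. The counts of lower genes among abundant products therefore hold for the deposited scale, and a smaller number holds after quantile normalization. Exocrine pancreas markers, 2 of 5 measured, averaged 8.48 in C57BL6/J, against 9.77 in 129S1/SvImJ (adjusted p = 0.045), 9.52 in C3H/HeJ (adjusted p = 0.073) and 10.44 in DBA/2J (adjusted p = 0.0061), by exact permutation, and 0 of the 4 adipocyte marker genes passed the filter on low signals.

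**Figure D5:**
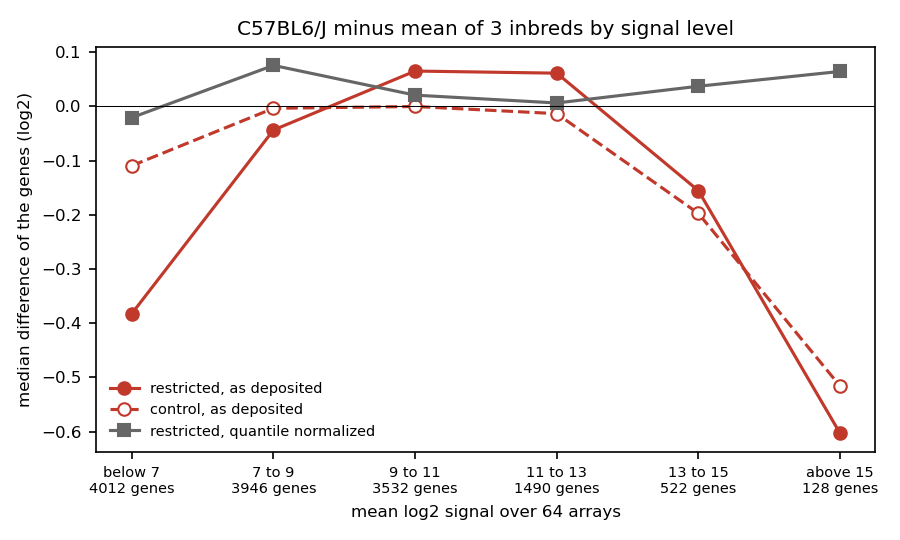
Median log2 difference of C57BL6/J minus the mean of 3 strains on the restricted diet (vertical axis) for genes grouped by mean log2 signal (horizontal axis), on the deposited scale and after quantile normalization, with the control diet on the deposited scale as open points. On the restricted diet the deposited-scale medians are -0.38 in the dimmest group and -0.60 in the brightest, and after quantile normalization they are -0.02 and 0.06.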

How the data were processed

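Liver RNA of 64 mice, 8 groups of 8, was used from a series of 96 arrays. The deposited values are intensities on a linear scale, made by the authors with MAS5 per the submitters' processing notes, and the trimmed mean of each array was 500. The sources used here give neither the MAS5 version nor a genome build. The probe annotation gave 1 symbol for 34958 of 45101 probe sets, several for 932 and none for 9211, and 34754 matched the RefSeq gene table by gene ID.

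Control probe sets (64) were left out. Probe sets at or above the array median in at least 8 arrays were kept (29735), and the brightest stood for its gene, giving 13630 genes. Log2 intensities were fitted with limma 3.58.1 in R 4.3.3 (a mean per group, eBayes with trend and robust variances), with Benjamini-Hochberg adjustment over all genes and a threshold of 0.05. Array measures and marker lists were compared by two-sided exact permutation over 12870 splits (Python 3.11.15, scipy 1.17.1), adjusted over 39 tests. The number of arrays limits the precision, and p-values measure the spread between mice.

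Genes and lists were chosen with earlier results of these data known. The naming rule took the 12 largest differences each way among genes of 1 sign against all 3 strains, up to 10 restricted-only genes each way, up to 5 genes of opposite sign on the diets, up to 4 members of each of 40 lists with the smallest p (and up to 2 for the difference between diets), and a fixed set of metabolic and strain-variant genes. Other names are marked as chosen after their values were seen. The test was tried on simulated data. Alternatives were quantile normalization, centring on the 75th percentile, an added offset, other filters, other treatment of probe sets, plain eBayes, arrayWeights, all 12 groups, a replicate block, the array median as a covariate, a 1.5-fold minimum and leaving out DBA/2J restricted replicate 6. Differences between named strains were not corrected for probe variants.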

Additional observations from a re-analysis of the deposited data

Results flagged for a closer look

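In 336 sets of 8 arrays, 284 for genes and 52 for array measures, the highest or lowest value was compared with its nearest neighbour as a share of the group's range, and 30 stood beyond Dixon's critical value for 8 values. Chance gives about 1 in 20 such sets. No cause was tested for any of them.

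DBA/2J restricted replicate 6 held 5 of the 30. Its median log2 signal was 8.29, its Gapdh 3′ minus 5′ signal 2.51 and its Actb 3′ minus 5′ signal 4.86, and it was apart in Klf9 at 15.11 and in Cyp2c39 at 8.75. C3H/HeJ restricted replicate 4 held 4, with 11.77 for the macrophage markers, 10.71 for the neutrophil markers, 9.67 for Slc11a1 and 2.63 for Trim34a.

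Among C57BL6/J restricted mice, Hif3a was apart at 4.94 in replicate 6, Slc11a1 at 7.41 in replicate 1, Hddc3 at 5.10 in replicate 5 and the hepatocyte markers at 15.16 in replicate 3. Replicate 2 of that group was apart in Tsen34 at 11.73, Mir1931 at 6.74 and Rpgrip1 at 9.39. Among 129S1/SvImJ restricted mice, replicate 8 was apart in Clec2d at 10.99 and Trim34a at 2.16, replicate 6 in Hif3a at 6.74, and replicate 4 in Zfp874a at 7.84 and the skeletal muscle markers at 9.78. Among C3H/HeJ restricted mice, replicate 6 was apart in Cyp26a1 at 9.24, replicate 7 in Ccnf at 1.78 and replicate 1 in Ifi202b at 5.13. Among control mice, C57BL6/J replicate 4 was apart in Gnai2 at 10.98 and replicate 3 in Hif3a at 6.20, 129S1/SvImJ replicate 8 in Gnai2 at 10.34, DBA/2J replicate 8 in Hif3a at 8.86, and C3H/HeJ replicate 6 in Snhg1 at 9.16 and replicate 2 in Tff3 at 11.72.

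The strain difference itself differed between the diets, by limma's test of the restricted minus the control difference with an adjusted p under 0.05, in 24 genes that were restricted-only or of opposite sign. It was positive, so that C57BL6/J stood higher relative to the other strains on the restricted than on the control diet, in Cyp26a1 at 2.68, Clec2d at 1.87, Noct at 1.83, Lepr at 1.73, Foxo3 at 1.33, Klf9 at 1.26, Carmil1 at 1.24, Snhg1 at 1.05, Lin7a at 0.91, Gpr155 at 0.78, Mfsd4b1 at 0.61, Pbld2 at 0.55 and Tsen34 at 0.55. It was negative in Tff3 at -3.29, Ccl2 at -3.15, Hif3a at -1.33, Slco1a1 at -1.27, Ifi47 at -1.25, Nt5e at -1.13, Mpeg1 at -1.09, Fam89a at -1.02, Slc11a1 at -0.90, Krt8 at -0.84 and Gnai2 at -0.71. Mfsd4b1, Ifi47, Mpeg1, Slc11a1 and Krt8 were named after their values were seen.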

How the results depend on the processing

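For 49 results of named genes, 636 of 699 comparisons with an alternative kept direction and side of the threshold. In the rest 58 lost the call, 5 gained it and 0 changed sign. Ccl2 entered for the restricted diet and again for the difference between diets. On the restricted diet 349 comparisons of 24 genes kept the call and 1 lost it, that of Trim34a with averaged probe sets. Among genes described above and outside these 24, Gpr155, Ipo5, Mfsd4b1, Cyp2c70, Cyp2d9 and Scd1 lost their restricted calls after quantile normalization. So did abundant list genes not described above. Among them Apoa1 went from -1.23 to -0.07 (adjusted p = 0.174, limma) and Cps1 from -0.69 to 0.17 (adjusted p = 0.315, limma). Counts are given as higher and lower in C57BL6/J (positive and negative for the difference between diets). Down-weighting arrays by arrayWeights gave 2680 and 2980 on the restricted diet, 2168 and 2366 on the control diet, 505 and 473 between diets, 233 and 212 restricted-only, and 771 and 749 against all 3 strains. A 1.5-fold minimum gave 907 and 1117 restricted, 793 and 706 control, 4 restricted-only higher, and 224 and 203 against all 3 strains. Quantile normalization gave 1135 lower on the restricted diet, 215 lower against all 3 strains and 11 restricted-only higher; of the deposited-scale calls it kept 1311 higher and 988 lower, turned 17 round, and kept 9 of the 13 restricted-only genes. Centring on the 75th percentile gave 15 and 10 between diets and 4 and 3 restricted-only. Fitting all 12 groups gave 17 and 15 between diets. With the array median as a covariate there were 62 negative between diets, 12 and 28 restricted-only, and 553 lower against all 3 strains. Leaving out DBA/2J restricted replicate 6 gave 52 and 66 between diets and 18 and 22 restricted-only; quantile normalization without it, chosen after seeing the data, gave 58 and 64, and 18 and 19. A stricter filter gave 11 restricted-only lower, averaged probe sets 10, and every probe set on its own 612 higher against all 3 strains. Replicate numbers share nothing in the labels but the number, and samples of 1 number did not deviate together (median r = 0.00616, against -0.000509 for other numbers, with 19 of 224 pairs over 0.1), so no pairing is claimed; with the replicate block 10 genes were restricted-only lower. The causes of these shifts were not tested. Of the restricted-only genes, Tff3 and Clec2d met the conditions in 15 of 15 alternatives, Ccl2 in 14 of 14, Lepr in 14 of 15, Foxo3 and Nt5e in 13, Lin7a and Pbld2 in 10, Slco1a1, Fam89a and Tsen34 in 9, and Noct and Hif3a in 8. MAS5 signals below the array median carry little information on level, which limits the size of differences in Ifi202b, Nlrp12, Ccl2, Tff3 and Cidea.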

Other observations

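Leaving out DBA/2J restricted replicate 6 added genes to the restricted-only set that belong to groups described above. Cyp8b1 then gave a difference of -1.13 on the restricted diet, -0.08 on the control diet and -1.05 between diets (adjusted p = 0.00669). Gbp7, an interferon-inducible GTPase, gave -0.73, 0.17 and -0.90 (adjusted p = 0.0377). Lcn2, an iron-siderophore-binding acute phase protein, gave -2.08, 0.96 and -3.04 (adjusted p = 0.0382), and its restricted signals were lowest 6.5, median 6.97 and highest 7.41 in C57BL6/J, against 7.75, 8.91 and 10.73 in 129S1/SvImJ, 7.08, 8.36 and 14.49 in C3H/HeJ and 6.25, 9.41 and 10.62 in DBA/2J. Slc11a2, an iron importer, gave -0.52, 0.30 and -0.82 (adjusted p = 0.0379). All 4 were lower in restricted C57BL6/J than in the mean of the other strains. With all arrays none of them passed in the difference between diets, where Cyp8b1 and Gbp7 had an adjusted p of 0.0518 and Lcn2 of 0.0836.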
